A study of Mus musculus with 26 samples.

Results

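The enzymes that build triglyceride in the liver and the lipases that take it apart were followed across 6 groups of mice through 10 genes: Gpam, Agpat2, Mogat1, Dgat1 and Dgat2 for assembly, and Pnpla2, Lipe, Mgll, Lipc and Lpl for hydrolysis. The platform annotation gave 12 of the 25697 probes of the array to 9 of these genes and none to Lipc. A probe was tested if its signal was detected (detection p under 0.01) on at least 4 of the 26 arrays, which held for 10 of the 12 probes (8 genes) and for 11001 probes of the array in all. Both Lipe probes were detected on 0 arrays.

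Liver RNA of each mouse was measured on 1 Illumina MouseRef-8 v2.0 array, and all infused mice were female ob/ob mice on the C57BL6 background, which make no functional leptin, become obese and store excess fat in the liver. From 15 weeks of age they received for 12 days, from osmotic pumps, saline under the skin (VEH_SQ), 10 µg/day leptin under the skin (LEP_SQ), artificial cerebrospinal fluid into the lateral brain ventricle (VEH_ICV) or 1.5 µg/day leptin into the ventricle (LEP_ICV and LEP_ICVN), with 4 arrayed mice in each of the 5 groups. LEP_ICV held mice that lost weight and LEP_ICVN mice of the same treatment that did not, in which placement of the cannula is uncertain, so these groups were separated by response and not by assignment. The 6 C57BL6 mice labelled baseline (B6) served for comparison, and the sources used here state neither their age, sex nor any infusion. The ob/ob mutation is in every cell of the body from birth, and the doses differ between the routes.

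Triglyceride is built by adding fatty acids to glycerol 3-phosphate in steps, first by glycerol-3-phosphate acyltransferases and then by acylglycerolphosphate acyltransferases, followed by removal of the phosphate and a last acylation by the diacylglycerol acyltransferases. A side entry acylates monoacylglycerol directly. Inside the cell, adipose triglyceride lipase, hormone-sensitive lipase and monoacylglycerol lipase remove the fatty acids in sequence, while lipoprotein lipase and hepatic lipase act on circulating lipoproteins. A fatty liver can draw on both the assembly and the supply side of this cycle.

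Arrays differed in background in a way that bears on all results below. The median intensity of undetected probes was 99.3 to 113.8 on 12 arrays and 152.7 to 186.1 on the other 14. The 8 vehicle arrays all had low background, the 4 LEP_SQ and 6 B6 arrays all had high background, and LEP_ICV and LEP_ICVN had 2 mice of each kind. Class and group therefore cannot be told apart in LEP_SQ against VEH_SQ and in vehicle-treated ob/ob against B6, whereas LEP_SQ against B6 and VEH_ICV against VEH_SQ each lie within 1 class. Within the high class, the LEP_SQ arrays had lower background (155.3 to 167.6) than the B6 arrays (171 to 186.1), without overlap. A fit with the class as a block is given beside the results, and its class term rests on the LEP_ICV and LEP_ICVN mice. The array of mouse LEP_ICV_1019 had the lowest background of the high class, 152.7, and on the first principal component (61.2% of the variance) it lay at -52.6 among the low-class arrays (-90.4 to -12.6), while the other 13 high-class arrays lay at 26.4 or above. Detected probes numbered 6786 to 11117 per array. The B6 mice carry labels of 2 number series (B6_5541, B6_5542 and B6_5543, and B6_2021, B6_2029 and B6_2035). The first series read higher in Mgll probe A (up to 11.46, against 10.44 to 10.78). It also read higher in Dgat2 (13.91 to 14.35 against 13.55 to 13.89) and Mgll probe C (7.98 to 8.22 against 6.45 to 7.47). Lpl was lower in the first series (9.64 to 9.87 against 9.90 to 10.44). The series did not overlap in any of these probes, but overlapped in Gpam, Agpat2, Mogat1, Dgat1, Pnpla2 and Mgll probe B. The share of all tested probes split in this way was not counted, so the split only describes these probes. Liver identity held on all arrays, with 6 of 6 hepatocyte markers detected on every one, and 0 of 4 adipocyte markers on the array were detected in any mouse.

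Calls among the 10 tested probes are given beside the share of all 11001 tested probes called by the same limma rule (Benjamini-Hochberg adjusted p under 0.05). In LEP_SQ against VEH_SQ 4 probes were higher and 4 lower, against 41.9% of all probes called (22.1% higher and 19.8% lower), and with the class as a block 0 were called, against 0.245%. At an unadjusted p under 0.05 the block left 2 of the 10 probes and 817 of all. In LEP_ICV against VEH_ICV 1 probe was higher (Lpl) and 1 lower (Gpam), against 23.4% (12.5% and 10.9%), and the same 2 were called with the block, against 11.4%. The leptin effect differed between routes for 1 probe (Pnpla2), against 1.47%, and for 0 with the block, against 1.12%, where 2 of the 10 had an unadjusted p under 0.05, against 1694 of all. In vehicle-treated ob/ob mice of both routes against B6 4 probes were higher and 3 lower, against 68.9% (32.7% and 36.3%), and 3 were higher with the block, against 7.81%.

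In LEP_ICV against LEP_ICVN the same Lpl and Gpam probes were called as against vehicle, 1 higher and 1 lower, against 7.24% of all probes (4.2% and 3.05%), and both held with the block, against 10.7%. In LEP_ICVN against VEH_ICV limma called 0 of the 10 probes and 0% of all, with 4 of the 10 and 2935 of all at an unadjusted p under 0.05. LEP_SQ mice had 3 probes above B6 and 0 below, against 7.24% (4.62% and 2.62%), and 1 lower in addition with the block, against 12.6%. The vehicle groups differed in 0 probes and 0% of all, with 0 of the 10 and 478 of all at an unadjusted p under 0.05. Groups did not overlap for 7 of the 10 probes in LEP_SQ against VEH_SQ (51.6% of all probes), 3 in LEP_ICV against VEH_ICV (17.5%), 1 in LEP_ICV against LEP_ICVN (7.27%), 5 in ob/ob against B6 (42.4%) and 3 in LEP_SQ against B6 (19.4%). Without the block, the share of called members was above that of all probes in LEP_SQ against VEH_SQ, LEP_SQ against B6, LEP_ICV against LEP_ICVN and the route difference, slightly below it in LEP_ICV against VEH_ICV and close to it in ob/ob against B6. With the block it was above that of all probes in LEP_ICV against VEH_ICV, LEP_ICV against LEP_ICVN, ob/ob against B6 and LEP_SQ against B6, and 0 in LEP_SQ against VEH_SQ and the route difference. The members were chosen with earlier results of these data known, and 3 of the 10 probes belong to Mgll. These shares are therefore a description and no test of the list. The median change of the 10 probes was -0.26 in LEP_SQ and 0.35 in LEP_ICV against their vehicles, beside 0.04 and 0.05 over all tested probes. These comparisons share groups (VEH_ICV, LEP_ICV and LEP_SQ each enter more than 1), so they are not independent of each other.

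Lpl encodes lipoprotein lipase, the enzyme that frees fatty acids from circulating lipoproteins, which muscle, fat and macrophages make in quantity and adult hepatocytes hardly at all (chr8:68880555-68906932). It was the member most raised by leptin given into the ventricle. On the log2 scale of background-corrected, quantile-normalized intensity, the VEH_ICV mice read 9.25, 9.37, 9.86 and 9.97 and the LEP_ICV mice 10.97, 11.78, 12.17 and 12.23, with no overlap. The difference was 2.17 (SE 0.31), or 4.51-fold (adjusted p = 4.89e-05, limma), and 1.89 with the background class as a block (adjusted p = 5.5e-04). The low-background LEP_ICV mice read 10.97 and 12.17, above the vehicle mice, which were all on low-background arrays. The high-background LEP_ICV mice read 11.78 and 12.23, with no vehicle mouse of that class to set beside them. The LEP_ICVN mice read 9.66, 10.37, 10.44 and 10.99 and overlapped the LEP_ICV group by 1 mouse. LEP_ICV exceeded LEP_ICVN by 1.42 (SE 0.31, adjusted p = 0.0054, limma), and by the same amount with the block (adjusted p = 0.0025), but at an adjusted p of 0.0550 under median scaling and 0.20 in a fit of these groups alone. Lpl was called in 6 of the 10 other settings of this comparison, and was not called within the low or the high background class alone.

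With leptin under the skin, Lpl read 10.56, 11.13, 11.15 and 11.94 in LEP_SQ against 9.56, 9.80, 9.91 and 10.25 in VEH_SQ. These groups did not overlap either. The difference was 1.32 (SE 0.31), or 2.49-fold (adjusted p = 0.0046, limma), yet 0.75 with the class as a block (adjusted p = 0.71). The comparison with B6 lies within the high class, although every LEP_SQ array had a lower background than every B6 array. B6 read 9.64 at the lowest, 9.89 at the median and 10.44 at the highest, below every LEP_SQ mouse. LEP_SQ was 1.21 higher (SE 0.29, adjusted p = 0.011, limma). Without LEP_SQ_1029 that difference was 0.97 and missed the threshold (adjusted p = 0.066), and under median scaling it was 1.05 (adjusted p = 0.16). Vehicle-treated ob/ob mice did not differ detectably from B6 (-0.24, 95% interval -0.73 to 0.26, adjusted p = 0.38, limma), although under median scaling the change was -1.13 (adjusted p = 0.0051), where the median of all probes itself moved by -0.74. The leptin effect on Lpl was 0.85 larger by the ventricular route (95% interval -0.06 to 1.77, adjusted p = 0.36, limma), so a difference between routes was not shown.

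**Figure D1:**
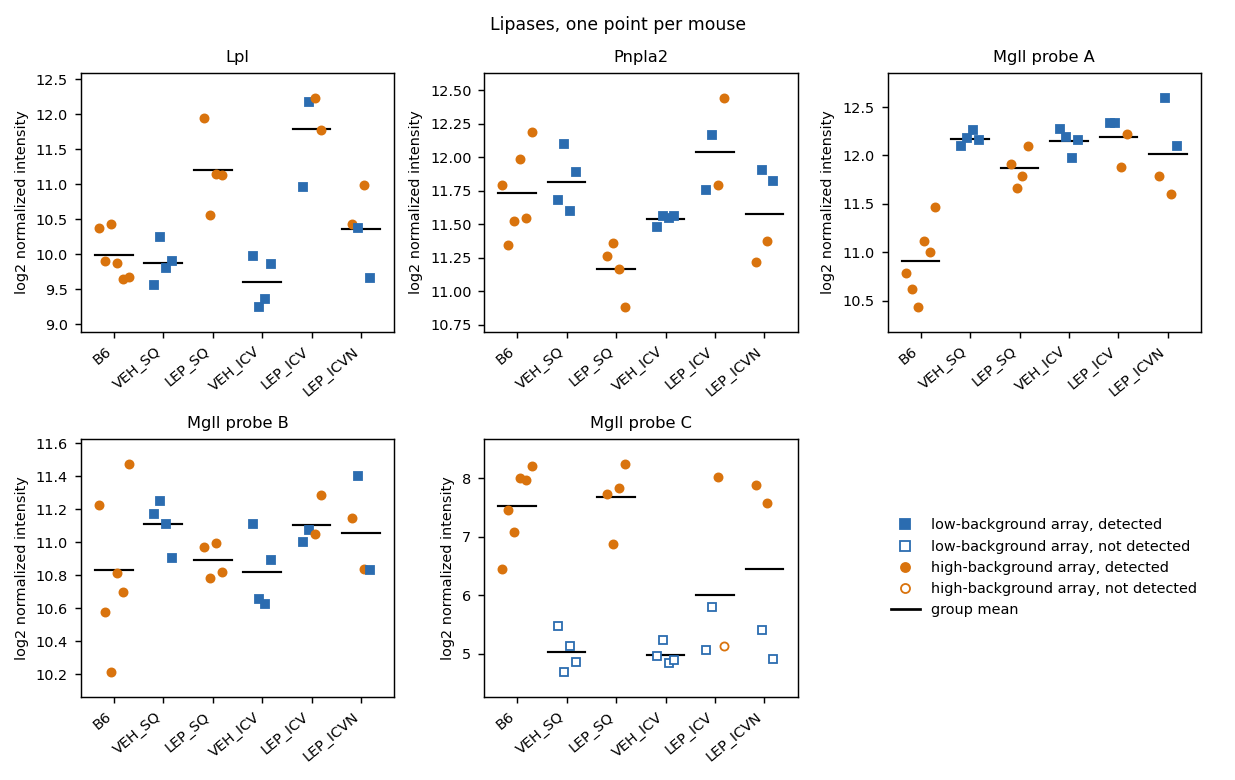
Log2 normalized intensity of Lpl, Pnpla2 and the 3 Mgll probes in 26 mice by group; squares are low-background and circles high-background arrays, open symbols are values not detected (p of 0.01 or above), and bars are group means. For Lpl the 4 LEP_ICV mice, 2 on arrays of each class, lie at 10.97 or above. The 4 VEH_ICV mice, all on low-background arrays, lie at 9.97 or below.

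In LEP_ICV, most tested macrophage markers were higher than in VEH_ICV, as Lpl was. In bulk liver, fewer cells of a type and less RNA per cell cannot be told apart, and the same holds for more. Of 8 tested Kupffer cell markers (10 listed), the resident macrophages of liver, 7 were higher in LEP_ICV than in VEH_ICV and 0 lower, also with the class as a block, and their summed level (log2 of the added linear values) was 13.01 to 13.63 against 11.52 to 12.29. Of 5 tested markers of lipid-laden macrophages (8 listed), 5 were higher, and 4 with the block, with summed levels of 13.4 to 14.8 in LEP_ICV against 11.3 to 11.7 in VEH_ICV. In every LEP_ICVN mouse both sums lay below those of the LEP_ICV mice, at 11.4 to 12.5 and 10.9 to 12.3, and 4 of 8 and 4 of 5 markers were higher in LEP_ICV. Of 6 hepatocyte markers, 2 were lower in LEP_ICV than in VEH_ICV and 0 higher (3 lower with the block). Their summed levels overlapped, at 16.64 to 17.00 in LEP_ICV and 16.94 to 17.02 in VEH_ICV. In LEP_SQ, 2 of the 6 were higher and 1 lower than in VEH_SQ (0 and 0 with the block). Of all tested genes, 25.1% were called in LEP_ICV against VEH_ICV and 40.1% in LEP_SQ against VEH_SQ (12.6% and 0.277% with the block). In LEP_SQ against VEH_SQ 3 of 8 Kupffer cell markers and 0 of 5 lipid-laden macrophage markers were higher, with 0 and 0 under the block; the summed lipid-laden levels were 10.8 to 12.7 in LEP_SQ and 11.6 to 12.2 in VEH_SQ. Against B6, where these sums were 9.70 to 10.4, 3 of 5 lipid-laden macrophage markers and 1 of 8 Kupffer cell markers were higher in LEP_SQ, with and without the block. The Kupffer cell sums of B6, 12.7 to 13.6, lay above those of both vehicle groups. Lpl did not differ detectably between vehicle-treated ob/ob mice and B6. In that comparison 2 of 8 Kupffer cell markers were higher in ob/ob and 5 lower (0 and 1 with the block). Of 5 lipid-laden macrophage markers, 3 were higher and 1 lower (0 and 0 with the block), beside 67.3% of all genes called. The defining markers Cd5l and Itgax were detected on 0 arrays. Skeletal muscle markers were near background except in LEP_SQ_1039, where 3 of 5 were detected (Acta1 at 9.66, Tnnt3 at 6.82 and Mylpf at 6.44), and Lpl in that mouse, 11.15, lay between those of its group. Without it the LEP_SQ difference in Lpl was 1.33 (adjusted p = 0.013, limma). The part of the macrophage markers in the Lpl result was not tested.

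Gpam encodes the mitochondrial glycerol-3-phosphate acyltransferase, which commits fatty acids to glycerolipid synthesis and is a known target of the lipogenic factor SREBP-1 (chr19:55067635-55127319, minus strand). Its level was lowest in mice that responded to ventricular leptin. The VEH_ICV mice read 6.46, 7.04, 7.15 and 7.16 and the LEP_ICV mice 5.67, 5.79, 6.11 and 6.14, with no overlap, although the probe was dim and was detected in 2 and 1 of the 4 mice. LEP_ICV was lower by 1.03 (SE 0.32), a 2.04-fold difference (adjusted p = 0.024, limma), and the change was -1.34 with the class as a block (adjusted p = 0.0094). The call was narrow, since leaving out any of 5 of the 8 mice (VEH_ICV_1010, VEH_ICV_1011, VEH_ICV_1012, LEP_ICV_1014 and LEP_ICV_1019) gave adjusted p values of 0.052 to 0.065. Under median scaling the change was -0.31 (adjusted p = 0.62) where the median of all probes moved by 0.49, and on the authors' log2 values it was -0.16 (adjusted p = 0.075).

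The LEP_ICVN mice read 6.17, 6.83, 7.80 and 7.84 for Gpam, all above the LEP_ICV mice. LEP_ICV fell below LEP_ICVN by 1.23 (SE 0.32, adjusted p = 0.018, limma; 0.0078 with the block). Without LEP_ICV_1014, LEP_ICV_1019, LEP_ICVN_1001 or LEP_ICVN_1008 the adjusted p was 0.057 to 0.080, and under median scaling, at -1.07, it was 0.21. The 2 LEP_ICVN mice with the highest Gpam were those on high-background arrays, where the LEP_ICV pair averaged 5.90 against 7.82; on low-background arrays the pairs averaged 5.95 and 6.50.

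By the skin route, Gpam read 5.94, 6.20, 6.32 and 6.63 in LEP_SQ against 6.14, 7.38, 7.48 and 7.50 in VEH_SQ, where VEH_SQ_1034 alone overlapped the leptin group. LEP_SQ was lower by 0.85 (SE 0.32, adjusted p = 0.037, limma), and the change was -1.49 with the block (adjusted p = 0.23). Without any 1 of 6 mice (VEH_SQ_1007, VEH_SQ_1035, VEH_SQ_1040, LEP_SQ_1029, LEP_SQ_1032 and LEP_SQ_1039) the adjusted p was 0.064 to 0.097. In B6 the level was 6.15 at the lowest, 6.26 at the median and 6.76 at the highest. Vehicle-treated ob/ob mice were 0.66 above B6 (SE 0.25, adjusted p = 0.020, limma) and 1.30 with the block (adjusted p = 0.033), but -0.043 under median scaling, where the median of all probes moved by -0.74. LEP_SQ and B6 differed by -0.10 (95% interval -0.71 to 0.50, adjusted p = 0.89, limma).

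Mogat1 encodes a monoacylglycerol acyltransferase, which makes diacylglycerol from monoacylglycerol and is known to be scarce in normal mouse liver (chr1:78511060-78606964, plus strand). It separated ob/ob from B6 livers more than any other member with a higher level in ob/ob. Mogat1 was detected on 0 of 6 B6 arrays, where it read 4.67 at the lowest, 5.01 at the median and 5.95 at the highest, and on 8 of 8 vehicle arrays, where VEH_SQ read 7.76, 8.20, 8.65 and 8.67 and VEH_ICV 7.16, 7.48, 7.65 and 8.41. With B6 at a bound set by the lowest detected signal of each array, vehicle-treated ob/ob mice were at least 4.01-fold higher (fitted log2 change 2.90, SE 0.29, adjusted p = 3.95e-08, limma). With the class as a block the fitted change was 3.38 (adjusted p = 8.2e-05), and it was called under every setting and without each mouse in turn. The smallest change was 0.61, on the authors' log2 values, so the bound of 4.01-fold holds only for the main normalization. The values by group for this and the other assembly enzymes are drawn in the plot of assembly enzymes by mouse.

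Mogat1 also stayed above B6 in mice given leptin under the skin. LEP_SQ read 6.95, 6.97, 7.58 and 7.74, was detected in 4 of 4 mice, and was at least 2.50-fold above B6 within the high-background class (fitted log2 change 2.22, SE 0.34, adjusted p = 3.6e-04, limma). On the authors' log2 values the same difference was 0.31 (adjusted p = 0.15). Against VEH_SQ the LEP_SQ mice were lower by 1.01 with no overlap (SE 0.37, adjusted p = 0.035, limma), but the change was -1.49 at an adjusted p of 0.36 with the block, -0.17 under median scaling, and it missed the threshold without VEH_SQ_1034, VEH_SQ_1035, LEP_SQ_1039 or LEP_SQ_1041 (adjusted p 0.087 to 0.096). LEP_ICV mice read 6.19, 6.53, 7.60 and 7.94 and were detected in 2 of 4, a difference from VEH_ICV of -0.61 that was not called (95% interval -1.38 to 0.16, adjusted p = 0.23, limma). LEP_ICVN read 7.54, 7.60, 8.35 and 8.70.

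The sequence before the start of each of these genes is shown because Gpam and Mogat1 were the assembly enzymes higher in ob/ob mice with the class as a block. RefSeq windows of 250 bases before an annotated start were held for 7 of the 10 genes, 11 windows in all, and those of Dgat1, Dgat2 and Lpl were not used here. Printed 5′ to 3′ on the gene's strand (GRCm38.p6) are the first 169 bases of the upstream Gpam window, chr19:55127320-55127488, all outside the annotated gene, and the Mogat1 window, chr1:78510810-78511059. Capitals mark the letters TCACCCCA, the core of the sterol response element that SREBP factors bind.
Gpam: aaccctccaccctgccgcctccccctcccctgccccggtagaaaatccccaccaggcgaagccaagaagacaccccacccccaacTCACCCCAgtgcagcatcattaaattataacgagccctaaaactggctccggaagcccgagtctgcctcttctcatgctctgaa
Mogat1: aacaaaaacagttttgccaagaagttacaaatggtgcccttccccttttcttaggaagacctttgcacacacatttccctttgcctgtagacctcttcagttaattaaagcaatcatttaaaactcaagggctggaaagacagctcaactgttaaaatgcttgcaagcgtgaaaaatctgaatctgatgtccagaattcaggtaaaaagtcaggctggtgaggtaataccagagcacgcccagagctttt
Searched on both strands, with no overlap between matches of different motifs in these windows, TCACCCCA stood in 1 of the 11 windows, the upstream Gpam window at 165 bases before its start, and in 1.34% of 32851 windows of all genes. CCAAT, the NF-Y box, stood in 3 of the 11 (33.8% of all), with 1 match 74 bases before the same Gpam start, CACGTG in 2 (6.02%), AGGTCA in 2 (14.0%) and TATAAA in 0 (12.4%). The Mogat1 window held 0 of these 5 motifs. A match describes the letters and shows no binding in these livers.

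**Figure D2:**
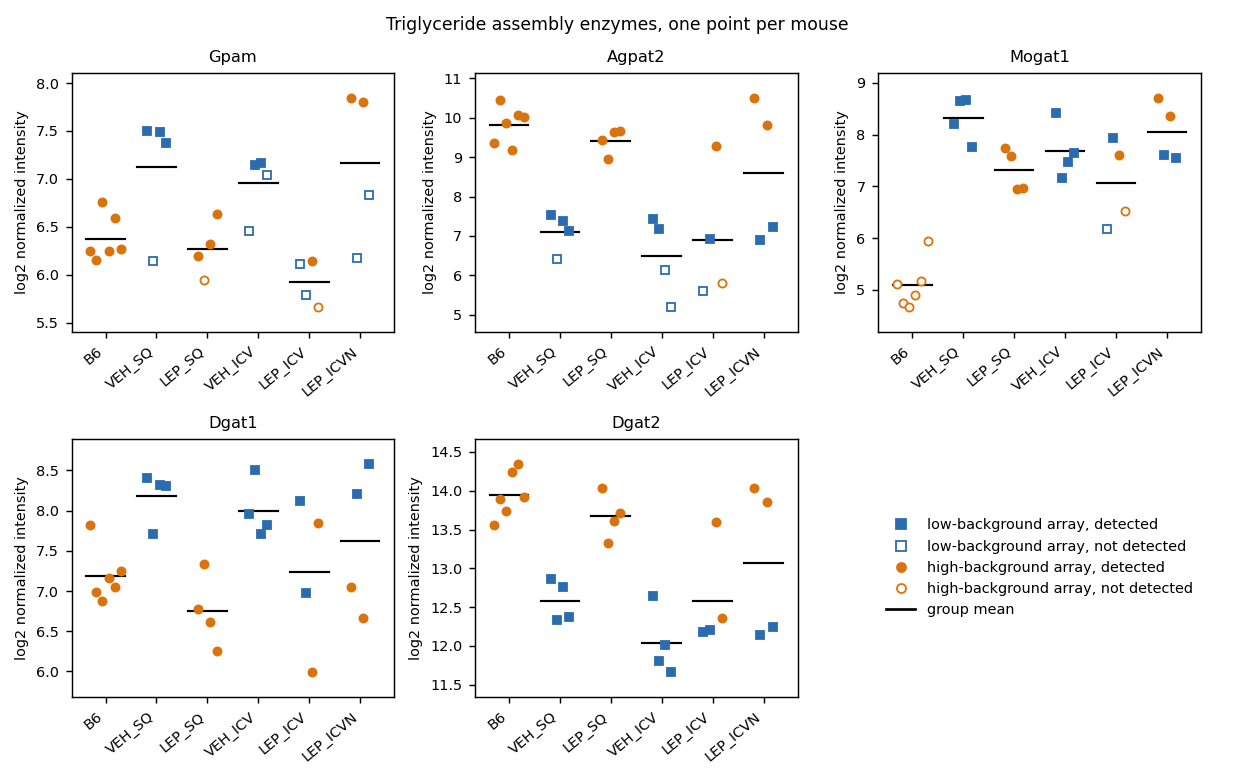
Log2 normalized intensity of Gpam, Agpat2, Mogat1, Dgat1 and Dgat2 in 26 mice by group; squares are low-background and circles high-background arrays, open symbols are values not detected, and bars are group means. Mogat1 is not detected in any of the 6 B6 mice and Agpat2 and Dgat2 divide by array class within LEP_ICVN.

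Agpat2 encodes an acylglycerolphosphate acyltransferase that makes phosphatidic acid (chr2:26593057-26604417), and Dgat2 the diacylglycerol acyltransferase that esterifies newly made fatty acids (chr7:99153663-99182713). Both read with the class of the array. Agpat2 was 9.17 at the lowest, 9.94 at the median and 10.45 at the highest in B6 and 8.96, 9.42, 9.64 and 9.66 in LEP_SQ, against 6.42, 7.12, 7.38 and 7.52 in VEH_SQ and 5.20, 6.14, 7.16 and 7.42 in VEH_ICV. It was detected in 3 of 4 VEH_SQ, 2 of 4 VEH_ICV and 2 of 4 LEP_ICV mice and in all mice of the other groups. The lowest values are therefore near background and the sizes of the changes are uncertain. In LEP_ICVN the low-background mice read 6.89 and 7.22 and the high-background mice 9.82 and 10.50. In LEP_ICV the low-background mice read 5.59 and 6.92 and the high-background mice 5.81 (LEP_ICV_1019) and 9.29. Across the 26 arrays its level correlated with log2 background at r = 0.87, a description in which all probes share the array.

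The calls for Agpat2 did not hold with the block. LEP_SQ exceeded VEH_SQ by 2.31 (SE 0.71, adjusted p = 0.015, limma), and by 0.11 with the block (adjusted p = 0.99). Vehicle-treated ob/ob against B6 gave -3.03 (SE 0.54, adjusted p = 4.65e-05, limma), and -0.83 with the block (adjusted p = 0.50) and 0.34 when the 2 high-background LEP_ICVN mice stood in for the vehicle mice. LEP_ICV against VEH_ICV was 0.42 (95% interval -1.05 to 1.89, adjusted p = 0.68, limma), and LEP_SQ against B6, within 1 class, -0.40 (95% interval -1.75 to 0.94, adjusted p = 0.79).

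Dgat2 was the brightest member, at percentile 96.8 of tested probes by mean level. It read 13.55 at the lowest, 13.90 at the median and 14.35 at the highest in B6 and 13.33, 13.61, 13.72 and 14.04 in LEP_SQ, against 12.33, 12.37, 12.76 and 12.86 in VEH_SQ and 11.66, 11.81, 12.01 and 12.64 in VEH_ICV. LEP_ICVN divided into 12.14 and 12.25 on low-background arrays and 13.86 and 14.03 on high-background arrays. The level correlated with log2 background at r = 0.91. LEP_SQ exceeded VEH_SQ by 1.09 (SE 0.37, adjusted p = 0.023, limma), a change of -0.17 with the block (adjusted p = 0.94), and missed the threshold without VEH_SQ_1034, VEH_SQ_1040, LEP_SQ_1029 or LEP_SQ_1041. Vehicle-treated ob/ob against B6 gave -1.64 (SE 0.28, adjusted p = 3.02e-05, limma), and -0.37 with the block (adjusted p = 0.53). LEP_ICV read 12.18, 12.20, 12.35 and 13.60 and was not called against VEH_ICV (0.55, 95% interval -0.22 to 1.32, adjusted p = 0.27, limma).

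Dgat1 encodes the other diacylglycerol acyltransferase, of a separate protein family (chr15:76502012-76512021), and read the opposite way to array background (r = -0.71). The VEH_SQ mice read 7.71, 8.31, 8.32 and 8.41 and the LEP_SQ mice 6.26, 6.62, 6.78 and 7.34, with no overlap. The change was -1.44 (SE 0.40, adjusted p = 0.0092, limma) and -0.35 with the block (adjusted p = 0.89). LEP_ICV read 5.99, 6.97, 7.84 and 8.12 against 7.71, 7.82, 7.96 and 8.50 in VEH_ICV, a change of -0.77 that was not called (95% interval -1.60 to 0.07, adjusted p = 0.16, limma). B6 read 6.87 at the lowest, 7.10 at the median and 7.82 at the highest, and vehicle-treated ob/ob mice exceeded B6 by 0.90 (SE 0.31, adjusted p = 0.012, limma), but the change was -0.18 with the block (adjusted p = 0.83) and -0.061 under median scaling.

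**Figure D3:**
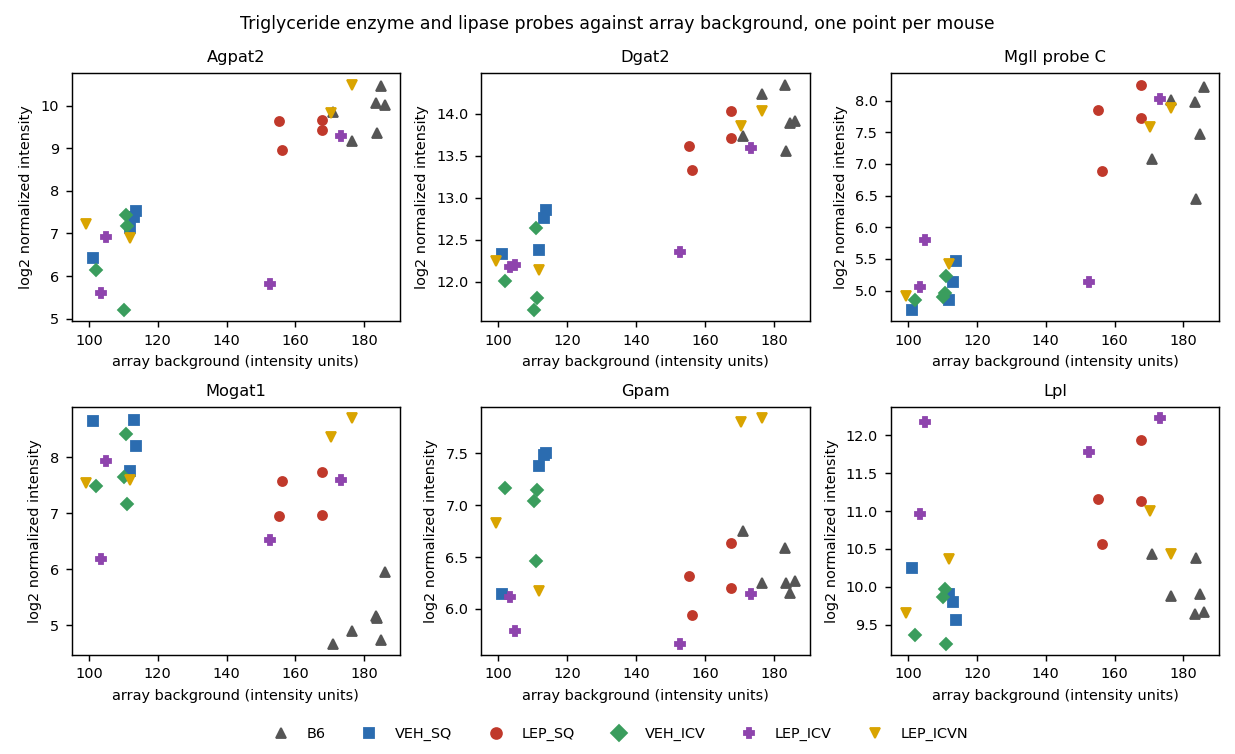
Log2 normalized intensity of 6 probes against the background of each array (median intensity of undetected probes), 1 point per mouse, symbols by group. Agpat2, Dgat2 and Mgll probe C rise with background across groups except in LEP_ICV_1019 at 152.7, whereas for Mogat1 the B6 mice stand apart at a given background. For Lpl the low-background LEP_ICV mice lie above all other low-background mice. On high-background arrays LEP_SQ_1029 (11.94) lies above LEP_ICV_1019 (11.78).

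Pnpla2 encodes adipose triglyceride lipase, which starts the breakdown of stored triglyceride (chr7:141455188-141460743). The effect of leptin on it was called different between the routes, narrowly and not with the class as a block. Its skin-route comparison cannot be told apart from array class. LEP_SQ read 10.89, 11.17, 11.26 and 11.36 against 11.60, 11.68, 11.89 and 12.10 in VEH_SQ, and LEP_ICV read 11.76, 11.80, 12.16 and 12.44 against 11.48, 11.55, 11.56 and 11.57 in VEH_ICV. Neither pair of groups overlapped, and they moved in opposite directions. The vehicle groups, which both enter the route difference, did not overlap each other either. VEH_ICV against VEH_SQ gave -0.28, which was not called (adjusted p = 0.98, limma). LEP_SQ was lower by 0.65 (SE 0.21, adjusted p = 0.018, limma), a change of -0.44 with the block (adjusted p = 0.77), and missed the threshold without VEH_SQ_1034 or LEP_SQ_1041 (adjusted p = 0.059 and 0.066). LEP_ICV differed by 0.50 (95% interval 0.07 to 0.93), which was not called (adjusted p = 0.081, limma), although it was at 0.59 without LEP_ICV_1003 (adjusted p = 0.042) and at 0.82 under median scaling (adjusted p = 0.028). The difference between the routes was 1.15 (SE 0.30, adjusted p = 0.049, limma), 1.05 with the block (adjusted p = 0.084) and 0.75 when LEP_ICV_1019, which had the highest Pnpla2, was also left out (adjusted p = 0.13). It missed the threshold without any 1 of 14 of the 16 mice (adjusted p 0.056 to 0.12).

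Pnpla2 did not differ detectably between vehicle-treated ob/ob and B6 mice. B6 read 11.35 at the lowest, 11.67 at the median and 12.19 at the highest, and the difference was -0.05 (95% interval -0.38 to 0.28, adjusted p = 0.78, limma), though under median scaling it was -0.74 (adjusted p = 0.0019) where the median of all probes moved by -0.74. LEP_SQ lay -0.56 from B6 within the high class (SE 0.19, adjusted p = 0.074, limma; 0.046 with the block). LEP_ICVN read 11.22, 11.38, 11.82 and 11.90, with the lower values on the high-background arrays.

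Mgll encodes monoacylglycerol lipase, which releases the last fatty acid (chr6:88724412-88828360), and its 3 probes disagreed. Probe A (ILMN_2700408), the brightest, read 12.10, 12.16, 12.18 and 12.26 in VEH_SQ and 11.98, 12.16, 12.19 and 12.27 in VEH_ICV against 10.44 at the lowest, 10.89 at the median and 11.46 at the highest in B6, with no overlap. Vehicle-treated ob/ob mice were 1.26 higher (SE 0.16), or 2.39-fold (adjusted p = 1.15e-06, limma), 0.79 with the block (adjusted p = 0.042) and 0.68 when LEP_ICV_1019 was left out of that fit (adjusted p = 0.0996). LEP_SQ read 11.67, 11.79, 11.92 and 12.10, also above every B6 mouse in the same class, by 0.96 (SE 0.20, adjusted p = 0.0041, limma), and by 0.81 under median scaling (adjusted p = 0.088). No leptin comparison called probe A, with changes of -0.31 by the skin route (95% interval -0.75 to 0.14) and 0.04 by the ventricular route (95% interval -0.40 to 0.48).

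Probe B of Mgll (ILMN_2857957) was called in 0 of the 8 comparisons and ran from 10.21 to 11.48 over all mice. Its difference between vehicle-treated ob/ob and B6 mice was 0.13 (95% interval -0.21 to 0.47, adjusted p = 0.48, limma), and -0.64 under median scaling (adjusted p = 0.029). Probe C (ILMN_2592925) was dim and followed array class, with r = 0.90 to log2 background. It was detected on 0 of 8 vehicle arrays (4.69 to 5.47), on 6 of 6 B6 arrays (6.45 to 8.22) and on 4 of 4 LEP_SQ arrays (6.89 to 8.26). LEP_SQ was at least 1.87-fold above VEH_SQ (fitted change 2.64, adjusted p = 0.0035, limma) and vehicle-treated ob/ob mice were below B6 by at least 1.57-fold (fitted change -2.52, adjusted p = 4.53e-05). With the block these changes were 0.78 (adjusted p = 0.82) and -0.66 (adjusted p = 0.52). A single statement for Mgll therefore cannot be given from the 3 probes.

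Lipe encodes hormone-sensitive lipase, the diacylglycerol lipase of fat and steroid-making tissue (chr7:25379527-25398486). Its 2 probes gave normalized values of 4.82 to 6.74 and 4.86 to 5.58 over the 26 mice, in the range of undetected probes, so it was not above background and no difference was tested. Lipc, hepatic lipase (chr9:70798128-70952221), was not measured because the annotation used here names no probe for it.

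**Figure D4:**
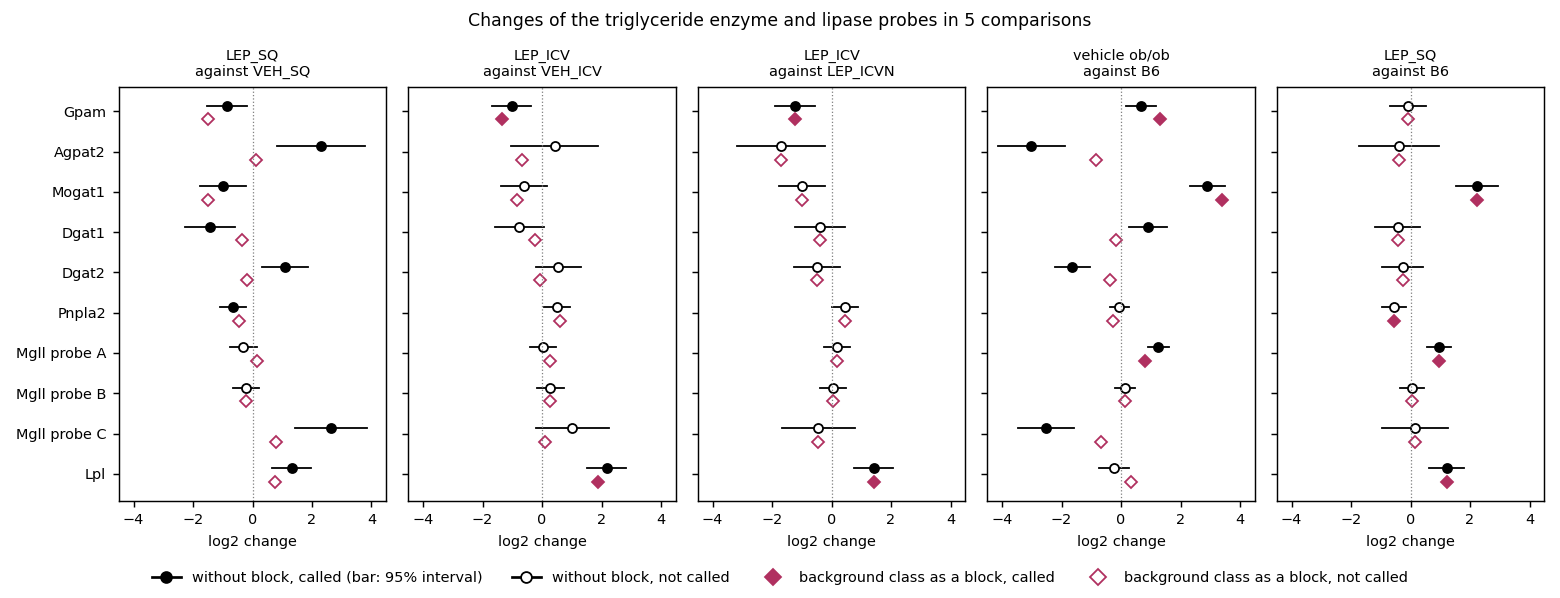
Log2 changes of the 10 tested probes in 5 comparisons; circles with 95% intervals are from the model of 6 groups and diamonds from the model with background class as a block, and filled symbols passed an adjusted p of 0.05 in limma. In LEP_SQ against VEH_SQ 8 circles and 0 diamonds are filled, and in LEP_ICV against VEH_ICV the Lpl and Gpam symbols are filled in both models.

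Other enzymes of assembly changed in both directions. Of 11 tested genes of that list, 1 was higher and 2 lower in LEP_SQ against VEH_SQ (all tested genes: 40.1% called), with 0 called under the block (0.277%). In LEP_ICV against VEH_ICV 3 were higher and 1 lower (25.1% of all genes called), and 2 of the higher ones held with the block (12.6% of all genes). Gpat3, a glycerol-3-phosphate acyltransferase of the endoplasmic reticulum, was higher by 2.43 (SE 0.53, adjusted p = 0.0024, limma; block 1.66, adjusted p = 0.026), and Plpp2, a lipid phosphatase, by 1.67 (SE 0.40, adjusted p = 0.0050; block 1.41, adjusted p = 0.037). Agpat4 was higher by 0.83 (block 0.93, adjusted p = 0.074) and Gpat4, a relative of Gpat3, lower by 0.81 (block -0.60, adjusted p = 0.19). Gpat3 and Gpam, which catalyse the same step at different membranes, thus changed in opposite directions in LEP_ICV. In vehicle-treated ob/ob against B6 2 of the 11 were higher and 3 lower (67.3% of all genes called), and Agpat3, at 2.62 (SE 0.28, adjusted p = 1.23e-07, limma), was the 1 that held with the block (1.14, adjusted p = 0.011), against 7.85% of all genes. Agpat3 was also higher in LEP_SQ than in B6, by 1.26 (adjusted p = 0.023, limma).

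Among 12 tested lipases and lipolysis cofactors beside the members, 2 were higher and 3 lower in LEP_SQ against VEH_SQ, beside 40.1% of all genes called, with 0 under the block, and 2 were higher and 3 lower in LEP_ICV against VEH_ICV, beside 25.1%. The ventricular change that held with the block was in Pla2g12a, a gene of the secreted phospholipase A2 family, which was higher by 2.42 (SE 0.30, adjusted p = 8.52e-06, limma; block 2.17, adjusted p = 1.05e-04) and was also 1.75 above LEP_ICVN (adjusted p = 5.4e-04). Pnpla6, a lysophospholipase, was lower by 1.63 (adjusted p = 0.0054, limma; block -0.99, adjusted p = 0.057), the carboxylesterase Ces1g by 1.38 and Lipa, the lysosomal acid lipase, by 0.81, while Abhd12 was higher by 0.88, each no longer called under the block (-0.64, -0.44 and 0.45). In vehicle-treated ob/ob against B6 3 were higher and 4 lower, beside 67.3% of all genes, and Abhd12, a lysophospholipid hydrolase, held with the block (-2.16, SE 0.24, adjusted p = 1.97e-07, limma; block -1.29, adjusted p = 0.019).

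Of 15 tested partners of lipoprotein lipase and hepatic lipase, 0 were higher and 4 lower in LEP_SQ against VEH_SQ, beside 40.1% of all genes called in either direction, with 0 under the block. In LEP_ICV against VEH_ICV 0 were higher and 5 lower, beside 25.1% of all genes, with 1 lower under the block. Apoc3, the apolipoprotein that inhibits lipoprotein lipase, fell by 0.62 in LEP_ICV (SE 0.14, adjusted p = 0.0035, limma; block -0.68, adjusted p = 0.0039), and lay 0.66 below LEP_ICVN (adjusted p = 0.0043). Angptl8, an inhibitor of lipoprotein lipase that feeding induces, changed by -2.63 in LEP_ICV (SE 0.64, adjusted p = 0.0057, limma) and by -1.88 in LEP_SQ (adjusted p = 0.024), and by -1.85 and -0.32 with the block (adjusted p = 0.062 and 0.95). The receptor Lrp1 was lower by 1.41 in LEP_ICV and 1.59 in LEP_SQ, and Gpihbp1, which anchors the lipase to capillaries, by 1.30 in LEP_SQ, all no longer called with the block (-0.50, 0.24 and -0.92, adjusted p = 0.38, 0.92 and 0.32). In vehicle-treated ob/ob against B6 7 were higher and 2 lower, beside 67.3% of all genes, of which Vldlr, a lipoprotein receptor, held with the block (1.74, SE 0.28, adjusted p = 1.59e-05, limma; block 1.80, adjusted p = 0.021).

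Over the 26 arrays, the genes whose levels were most like those of Lpl were Cyria (r = 0.90), the pseudogene Ubb-ps (0.90) and Haus8 (0.89), and these stayed at 0.88, 0.88 and 0.94 after class means were removed. Those most like Mogat1 were Lgals1 (0.91), Cidea (0.90), a lipid droplet protein, and Celf2 (0.88), with 0.93, 0.89 and 0.86 within class. Gpam had no close match, with Nipsnap1 highest at 0.75. Pnpla2 was most like Ctdsp2 (0.86), Rab3d (0.80) and Mif (0.79). The genes most like Dgat2 were Nrn1 (0.97), Adi1 (0.97) and Atp1b1 (0.96), those most like Agpat2 were Copz2, Man2a1 and Mreg (0.97 each), and those most like Dgat1 were Mfn1 (0.92), Smg6 (0.91) and Atad3a (0.90). After class means were removed these stood at 0.85 to 0.91 for Dgat2, 0.89 to 0.92 for Agpat2 and 0.76 to 0.81 for Dgat1. Among the members, Agpat2 and Dgat2 were most alike (r = 0.94, and 0.80 within class), and Mogat1 and Mgll probe A correlated at 0.77 (0.68 within class). These correlations are descriptions over mice of 6 groups that share genotype and treatment differences.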

How the data were processed

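The authors deposited probe intensities of 26 Illumina MouseRef-8 v2.0 arrays, read with BeadStudio 2.0 and not normalized, each with a deposited detection score (0 to 1, rising with signal), so that 1 minus the score served as detection p. A deposited table of log2 values, which the authors obtained through lumi (variance stabilization, robust spline normalization), served as an alternative. The lumi version, chip positions and dates are not given in the sources used here. Background correction and quantile normalization of the intensities used neqc (offset 16) of limma 3.58.1 in R 4.3.3. Groups came from the sample labels, and each array is a separate mouse.

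Probes with detection p under 0.01 on at least 4 arrays were tested in 1 limma model of 6 groups (8 contrasts), adjusted over all 11001 probes by Benjamini-Hochberg, and called under 0.05. Gene counts use the brightest probe of each of 7953 named genes. Of all probes, 23978 had 1 symbol, 0 several and 1719 none. Where no mouse of a group gave a detected value, the fold is a lower limit on the neqc scale ("at least N-fold"). It is taken against the lowest detected signal of each array. Array background class was defined from the array intensities and fitted as a block. The limma contrast of LEP_SQ against VEH_SQ was tested on simulated log2 values that held no background class. Background correction, normalization and the block fit were not tested in this way. Members, pathway lists and marker lists were chosen with earlier results of these data known. Named are all probes of the members, up to 3 called genes in each direction of the pathway lists, and the 3 genes most like a member by Pearson r. Intensities carry no counts, so the number of arrays limits the precision. Alternatives tried were other background corrections and scalings, probe filters, class restrictions, the compared groups alone and each mouse left out.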

Additional observations from a re-analysis of the deposited data

Results flagged for a closer look

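In VEH_SQ, VEH_SQ_1034 stood apart from the other 3 in Gpam, at 6.14 against 7.38 to 7.50, and in Dgat1, at 7.71 against 8.31 to 8.41. Its array had 6786 detected probes, the fewest of the 26. In LEP_ICV, LEP_ICV_1017 stood apart in Dgat2, at 13.60 against 12.18 to 12.35 in the others, of which 2 were on low-background arrays. Of 60 probe and group pairs examined, 3 stood apart in this way, and chance alone gives about 3. The leptin effect on Pnpla2 differed between routes by 1.15 on the log2 scale by the interaction test of limma (adjusted p = 0.049), being negative under the skin and positive into the ventricle, with 4 of 4 mice of each leptin group beyond all of its vehicle group. It was 1.05 with background class as a block (adjusted p = 0.084), missed the threshold without any 1 of 14 of the 16 mice, and its skin-route contrast cannot be told apart from array class.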

How the results depend on the processing

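Counts are of the 10 probes called. In LEP_SQ against VEH_SQ, where the model of 6 groups called 8, the count was 4 under median scaling, 0 with background class as a block, also with LEP_ICV_1019 left out, and 1 with the high-background LEP_ICVN pair in place of vehicle. For LEP_ICV against VEH_ICV (2) it was 1 (Lpl) with no background correction, on the authors' values, in the compared groups alone and within the low class. Under median scaling the count stayed at 2, with Pnpla2 called in place of Gpam. For the routes (1) it was 0 under median scaling, with no probe filter, in both block fits and in the compared groups alone. For LEP_ICV against LEP_ICVN (2) it was 0 under median scaling, in the compared groups alone and within the low class, and 1 (Gpam) within the high class. For ob/ob against B6 (7) it was 3 with the block, 2 with LEP_ICV_1019 also left out and 2 with the stand-in pair. For LEP_SQ against B6 (3) it was 1 under median scaling.

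Leaving out 1 mouse gave 5 to 7, 1 to 4, 0 to 1 and 1 to 3 for the first 4 comparisons in that order (the 4 of the second without LEP_ICV_1003), 7 to 7 for ob/ob against B6, 2 to 3 for LEP_SQ against B6, 0 to 0 between vehicles, and 0 to 4 for LEP_ICVN against VEH_ICV, the 4 arising without LEP_ICVN_1016 (Agpat2, Dgat2, Mgll probe C and Lpl).

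Signs turned as follows. In ob/ob against B6 Gpam was -0.043, Dgat1 -0.061 and Mgll probe B -0.64 under median scaling, which moved the median of all probes by -0.74. Dgat1 was -0.18 with the block. With LEP_ICV_1019 also left out Agpat2 was 0.046, Dgat1 -0.64 and Mgll probe C 0.057, and with the stand-in pair 0.34, -0.33 and 0.20. In LEP_SQ against VEH_SQ Dgat2 was -0.17 with the block. With LEP_ICV_1019 also left out Agpat2 was -0.76, Dgat1 0.11 and Dgat2 -0.52, and with the stand-in pair Agpat2 was -0.74, Dgat2 -0.27 and Mgll probe C -0.056. Median scaling moved the median of all probes by 0.62 in LEP_SQ and 0.49 in LEP_ICV against vehicle.

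The stand-in pair and the fit without LEP_ICV_1019 were chosen after seeing the data. Over single probes, 647 values kept direction and call under other settings, 49 lost the call, 7 gained it and 17 turned; leaving out 1 mouse kept 753, lost 40 and gained 7. The cause was not tested. No paired analysis was possible because the labels give each mouse its own number, shared by no other group. The 4 mice per group limit what can be called.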
